A study of Arabidopsis thaliana with 36 samples.

Results

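The comparison described here set *Arabidopsis thaliana* seedlings without functional *HSFA2* (*hsfa2*) against Col-0 wild type seedlings at a recurrent heat stress (HS). It rests on the 3 *hsfa2* and the 3 Col-0 libraries of the P + T treatment, 6 of the 36 RNA-sequencing libraries in the series, and covers every gene that passed a filter on low counts. P + T seedlings received an HS of 1 h at 37 °C on day 5 and a second such HS on day 7, and were harvested on day 7. Other seedlings were heated only on day 7 (T), only on day 5 (P) or not at all (NHS), with 3 libraries for each genotype and treatment. A mutant of the Mediator kinase gene *CDK8* (*cdk8*) makes up the other 12 libraries and, with *hsfa2* and Col-0, the 12 groups over which the spread was estimated. All groups were whole seedlings grown on plates without any further agent. The *hsfa2* plants carry a T-DNA insertion in Col-0 and represent 1 mutant line, so that an effect of the gene and an effect of this line cannot be told apart. The comparison asks which transcripts need HSFA2 when heat returns.

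Heat shock factors are transcription factors that bind heat shock elements, short inverted repeats of GAA and TTC, and activate genes for chaperones and other protective proteins. The HSFA1 proteins start the response in *Arabidopsis*. HSFA2 is itself made only after heat has begun and is known for maintaining or strengthening heat-induced transcription after a first exposure. In type II memory a gene responds more strongly to a second HS than to a first one, whereas in type I memory transcripts stay high for days after a single HS.

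Counted read pairs per P + T library lay between 29409330 and 30680023, and levels are given as CPM, counts scaled to 1000000 counted pairs and not corrected for transcript length. Fold-changes come from a fit that also scales the libraries to each other (TMM). Summed levels of 6 shoot markers were 53331 to 60421 CPM in *hsfa2* and 50633 to 55884 CPM in Col-0, and those of 8 root markers were 18.21 to 20.03 CPM in *hsfa2* and 18.46 to 20.01 CPM in Col-0. The summed level of 6 seed and pollen markers ranged from 14.9 to 38.5 CPM in *hsfa2* and from 6.55 to 54.2 CPM in Col-0. None of these 20 genes passed the test, and the part of tissue composition in the results below was not tested. In whole seedlings, fewer cells of a type and less RNA per cell cannot be told apart.

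*HSFA2* itself (AT2G26150, chr2:11135624-11137792, TAIR10.1) had 630, 701 and 691 CPM in the *hsfa2* libraries, against 2571, 3016 and 2817 CPM in the Col-0 libraries. The groups did not overlap, and reads of the gene remained in the mutant. The log2 fold-change (log2FC) of *hsfa2* relative to Col-0 was −2.05 (standard error 0.64), a 4.13-fold lower level. In the fit over all 12 groups of the series this difference missed the threshold (adjusted p = 0.0521). With the replicate number as a block the adjusted p was 0.0266. In fits restricted to T and P + T, or to the 6 P + T libraries alone, the log2FC was −2.06 (adjusted p = 4.34e-07 and 7.99e-06). At T the levels were 894 to 1179 CPM in *hsfa2* and 4610 to 4983 CPM in Col-0 (log2FC −2.23, adjusted p = 0.377). At NHS and P no library of either genotype exceeded 3.66 CPM.

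Of 20847 genes tested at P + T, 296 were lower in *hsfa2* (1.42%) and 61 were higher (0.293%) at an adjusted p under 0.05 and a log2FC beyond 1 in either direction. With the adjusted p alone, 880 genes were lower (4.22%) and 479 were higher (2.3%). Members of gene lists and families are counted below by the adjusted p alone, against these shares. The median log2FC over all genes was 0.029. At the other treatments far fewer genes met both criteria. These were 9 lower and 2 higher at T, 32 lower and 4 higher at P, and 2 lower and 2 higher at NHS. At an unadjusted p under 0.05 there were 3869 genes at P + T, 1236 at T, 1519 at P and 387 at NHS.

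**Figure D1:**
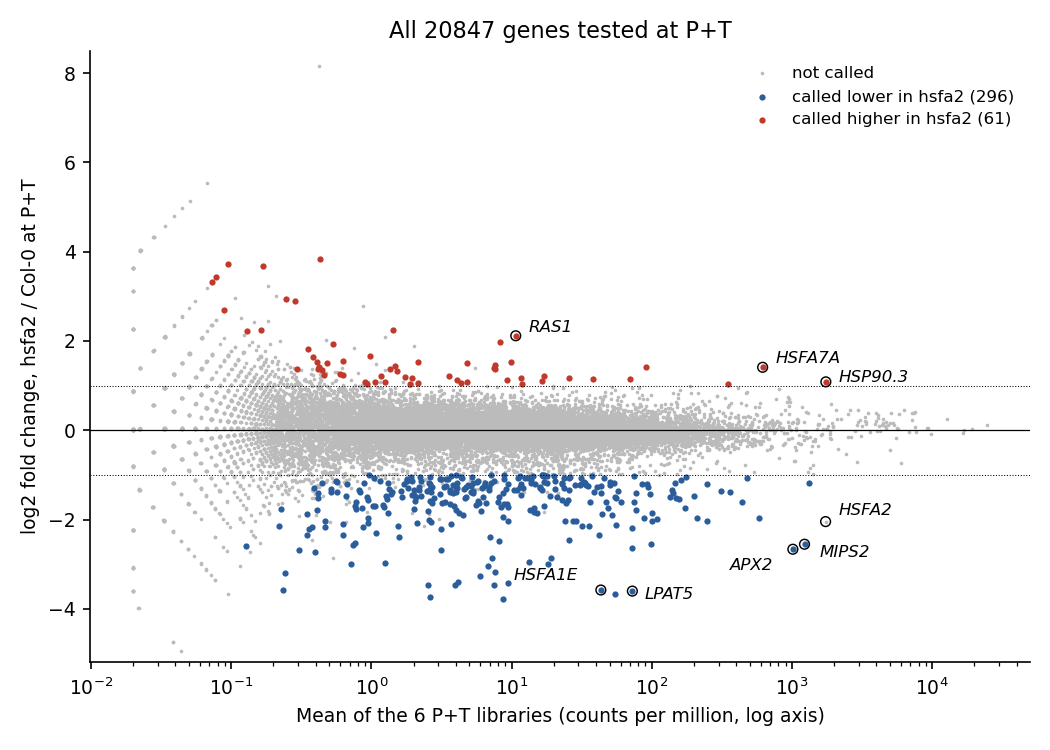
Level and difference for every gene tested at P + T. Each point is 1 gene, with the mean CPM over the 6 libraries on a log axis and the log2FC of *hsfa2* relative to Col-0 on the vertical axis. Dotted lines mark a log2FC of 1 in either direction. The 296 genes called lower (blue) outnumber the 61 called higher (red), and *HSFA2*, at −2.05, is circled but not called. Genes averaging less than 0.02 CPM are drawn at 0.02 CPM.

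The genes called lower had a median log2FC of −1.44, and 63 of them were below −2. Their median level was 3.04 CPM in *hsfa2*, against 9.66 CPM in Col-0, and 43 of them averaged under 1 CPM. In 294 of the 296 genes the *hsfa2* libraries did not overlap the Col-0 libraries, a pattern found in 20.1% of all genes tested. The genes called higher had a median log2FC of 1.38, and 12 of them exceeded 2. Their median level was 2.14 CPM in *hsfa2*, against 0.791 CPM in Col-0, and 26 of the 61 averaged under 1 CPM. In 60 of them the groups did not overlap. Of the lower genes, 83 (28.0%) overlapped another annotated gene, as did 29.6% of all genes tested, and reads in such overlaps cannot be assigned with certainty.

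The strongest decreases were taken among genes averaging at least 1 CPM without overlap between genotypes. They included a heat shock factor, an enzyme of membrane lipid synthesis and an enzyme of raffinose-type sugars. *HSFA1E*, which encodes a member of the HSFA1 group, had 6.38, 7.00 and 6.58 CPM in *hsfa2*, against 80.5, 82.7 and 76.9 CPM in Col-0. Its level was 11.9-fold lower (log2FC −3.58 ± 0.15 (SE), adjusted p = 4.74e-17). *LPAT5*, which encodes a lysophosphatidyl acyltransferase, had 11.9, 10.6 and 10.5 CPM in *hsfa2*, against 142, 131 and 130 CPM in Col-0 (log2FC −3.60 ± 0.13 (SE), adjusted p = 3.05e-19). For both genes the 3 mutant libraries lay closely together and far below every Col-0 library. *STS*, annotated as stachyose synthase, had 0.299, 0.646 and 0.136 CPM in *hsfa2*, against 5.31, 3.99 and 5.31 CPM in Col-0 (log2FC −3.74 ± 0.44 (SE), adjusted p = 2.62e-07). It was close to absent in the mutant, at a low level in both genotypes.

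Part of the promoters of 4 genes is shown to set 2 of the genes that were lowest in *hsfa2* beside a known HSFA2 target (*APX2*) and a heat shock factor gene that was higher in *hsfa2* (*HSFA7A*). Each run is the 150 bases before the annotated start, 5′ to 3′ in the direction of transcription, from RefSeq (TAIR10.1), and capitals mark matches to GAANNTTC or TTCNNGAA, the dimer forms of a heat shock element. *HSFA1E* lies at chr3:673278-673427 (plus strand), *LPAT5* at chr3:6501433-6501582 (minus strand), *APX2* at chr3:2956006-2956155 (plus strand) and *HSFA7A* at chr3:19264991-19265140 (plus strand).
HSFA1E: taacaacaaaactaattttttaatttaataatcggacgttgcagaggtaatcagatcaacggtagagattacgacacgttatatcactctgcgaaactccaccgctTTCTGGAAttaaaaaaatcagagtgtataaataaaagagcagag
LPAT5: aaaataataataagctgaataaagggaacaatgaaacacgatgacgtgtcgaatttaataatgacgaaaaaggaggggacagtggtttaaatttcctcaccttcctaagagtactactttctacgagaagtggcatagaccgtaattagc
APX2: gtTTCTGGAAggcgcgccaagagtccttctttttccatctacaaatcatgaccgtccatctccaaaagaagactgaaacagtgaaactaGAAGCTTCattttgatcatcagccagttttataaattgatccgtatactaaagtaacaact
HSFA7A: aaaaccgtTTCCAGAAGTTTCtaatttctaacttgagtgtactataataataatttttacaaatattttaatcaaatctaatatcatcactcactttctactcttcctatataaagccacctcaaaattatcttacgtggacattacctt
*HSFA1E* holds 1 match, *APX2* holds 2 separate matches, and in *HSFA7A* 2 matches overlap to form a trimer. No match was found in the *LPAT5* window. The same windows of *AT4G18840*, *STS*, *MIPS2* and *LACS9*, which were lower in *hsfa2*, and of *HSP90.3*, which was higher, are not printed. They held no match either. A match is a description of the letters and not a measured binding site.

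Several of the 12 lowest genes had no gene symbol but a RefSeq description. *AT4G18840*, *AT1G33350* and *AT4G14170* are annotated as pentatricopeptide repeat (PPR) proteins, a family of RNA-binding proteins of plastids and mitochondria. *AT1G33350* had 8.97, 7.24 and 7.32 CPM in *hsfa2*, against 101, 122 and 78.4 CPM in Col-0 (log2FC −3.67 ± 0.22 (SE), adjusted p = 1.48e-13). *AT4G18840* had 1.03, 1.50 and 1.05 CPM in *hsfa2*, against 18.1, 9.78 and 20.8 CPM in Col-0 (log2FC −3.77, adjusted p = 4.92e-11). *AT4G14170* had a log2FC of −3.48 (adjusted p = 4.04e-12). All 3 genes were without overlap between the genotypes, which was a condition for the 12 lowest. *AT1G33350* and *AT4G18840* overlap other annotated genes. The whole PPR family was chosen after these values were seen. By the adjusted p, 11 of its 237 tested members were lower (4.64%, against 4.22% of all genes). Another 3 were higher (1.27%, against 2.3%), and the family median was 0.051. The family as a whole was thus near the share of all genes for lower members.

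Other genes among the 12 lowest encode putative regulators and signalling proteins. *ZF3*, a zinc-finger protein gene, had 0.831, 1.80 and 2.10 CPM in *hsfa2*, against 17.4, 17.3 and 17.1 CPM in Col-0 (log2FC −3.43, adjusted p = 6.51e-12). *CLE43*, which encodes a CLAVATA3/ESR-related peptide, had 1.53, 1.67 and 1.39 CPM in *hsfa2*, against 13.2, 14.4 and 13.8 CPM in Col-0 (log2FC −3.16, adjusted p = 1.65e-14). Both genes were low in every mutant library, *CLE43* more evenly than *ZF3*. *AT4G31615*, annotated as a B3 family transcription factor, had a log2FC of −3.46 (adjusted p = 1.92e-09). *AT5G40645*, annotated as a RIN4 family protein, also had −3.46 (adjusted p = 2.62e-07), and *AT5G11140*, a phospholipase-like protein gene, had −3.40 (adjusted p = 2.03e-09). The noncoding RNA gene *AT1G67105* (−3.26, adjusted p = 7.11e-06) was set apart by its values at the other treatments, given below. *ZF3*, *AT4G31615* and *AT5G40645* overlap another annotated gene.

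**Figure D2:**
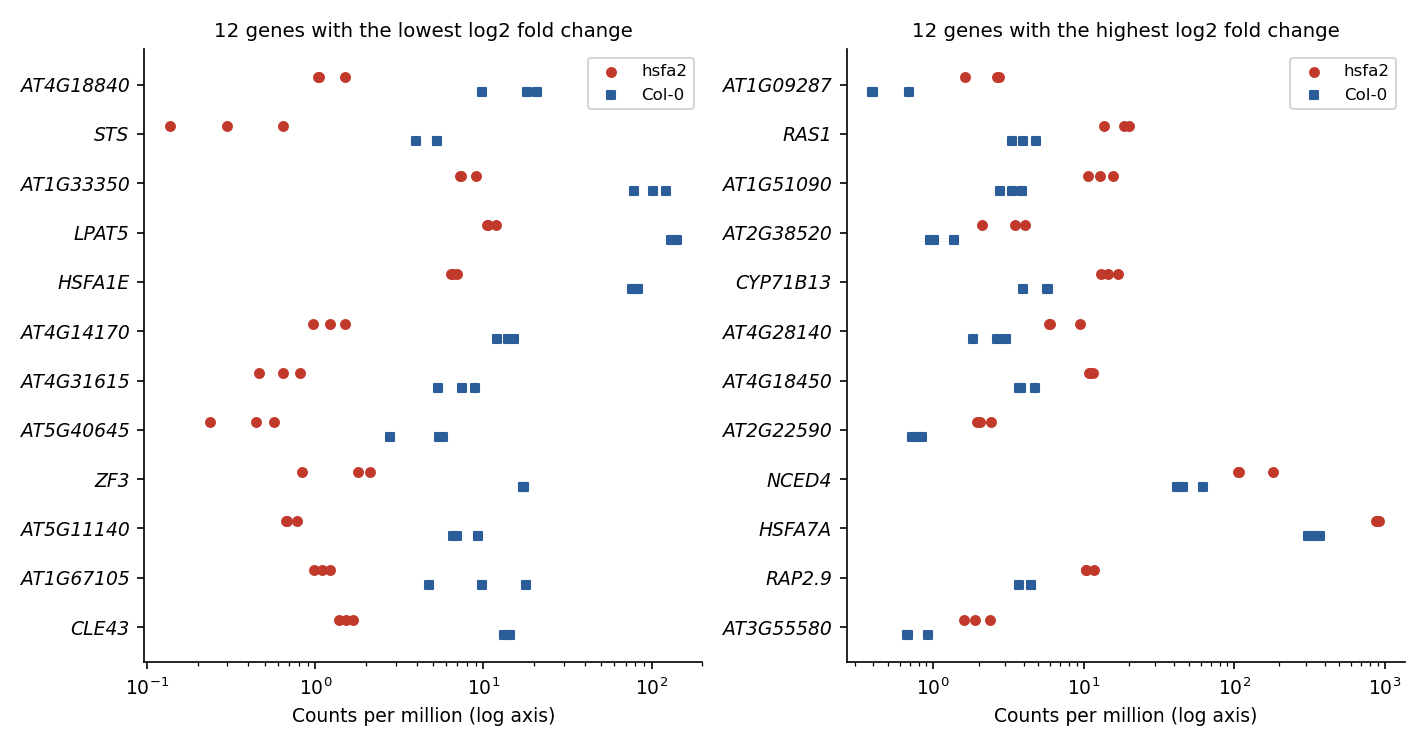
Levels of the 12 genes with the lowest and the 12 with the highest log2FC at P + T, among called genes averaging at least 1 CPM without overlap between genotypes. Each point is the CPM of 1 library on a log axis, with *hsfa2* as red circles and Col-0 as blue squares. *HSFA1E* and *LPAT5* show tight groups far apart, whereas the higher genes, such as *RAS1* at 13.7 to 19.9 CPM in *hsfa2* and 3.34 to 4.81 CPM in Col-0, are separated by less.

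The study follows type II memory with 5 endogenous genes, and all 5 were lower in *hsfa2* at P + T. A reporter transgene used beside them was not analysed here. The study picked these genes for this behaviour, so their count is not independent evidence. *APX2*, which encodes a cytosolic ascorbate peroxidase that removes hydrogen peroxide, had 286, 259 and 282 CPM in *hsfa2*, against 1867, 1591 and 1805 CPM in Col-0 (log2FC −2.66 ± 0.24 (SE), adjusted p = 1.51e-09). *MIPS2*, which encodes the enzyme of the first step of inositol synthesis, had 346, 313 and 409 CPM in *hsfa2*, against 2190, 1935 and 2181 CPM in Col-0 (log2FC −2.55 ± 0.13 (SE), adjusted p = 6e-15). *LACS9*, which encodes a long-chain acyl-CoA synthetase, had 41.8, 34.4 and 41.8 CPM in *hsfa2*, against 176, 142 and 165 CPM in Col-0 (log2FC −2.03 ± 0.10 (SE), adjusted p = 6e-15). None of these libraries overlapped between the genotypes. *XTR6*, a xyloglucan endotransglycosylase gene of the cell wall, had 228, 205 and 218 CPM in *hsfa2*, against 640, 712 and 629 CPM in Col-0 (log2FC −1.60 ± 0.32 (SE), adjusted p = 0.000924). *LPAT5* completes the group.

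*HSP101* and *HSP70*, the heat-induced chaperone genes measured beside these 5, did not pass the test. *HSP70* had 16812, 15958 and 17992 CPM in *hsfa2*, against 16701, 17283 and 17051 CPM in Col-0, with overlapping groups (log2FC 0.00 ± 0.44 (SE), adjusted p = 1). *HSP101*, which encodes the disaggregase that frees proteins from aggregates, had 13663, 13182 and 14466 CPM in *hsfa2*, against 11584, 11990 and 11160 CPM in Col-0 (log2FC 0.26 ± 0.51 (SE), adjusted p = 0.847).

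For 4 of the 5 genes the difference between *hsfa2* and Col-0 was larger at P + T than at T by a test of the interaction. The difference at P + T minus that at T was −3.06 for *LPAT5* (adjusted p = 1.7e-13), −1.79 for *MIPS2* (6.8e-08), −1.72 for *LACS9* (2.8e-09) and −1.58 for *APX2* (0.0058). For *XTR6* it was −0.88 (adjusted p = 0.67). After a single HS, *LPAT5* had 6.70 to 9.83 CPM in *hsfa2*, against 10.7 to 13.8 CPM in Col-0, and its difference did not pass the test (adjusted p = 0.0743). *APX2* (−1.08, adjusted p = 0.0384) and *MIPS2* (−0.76, adjusted p = 0.00313) were already lower in *hsfa2* at T. At P, 2 days after a single HS, *APX2* had 0.032 to 0.192 CPM in *hsfa2* and 6.92 to 10.1 CPM in Col-0 (log2FC −6.12, adjusted p = 1.21e-10).

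**Figure D3:**
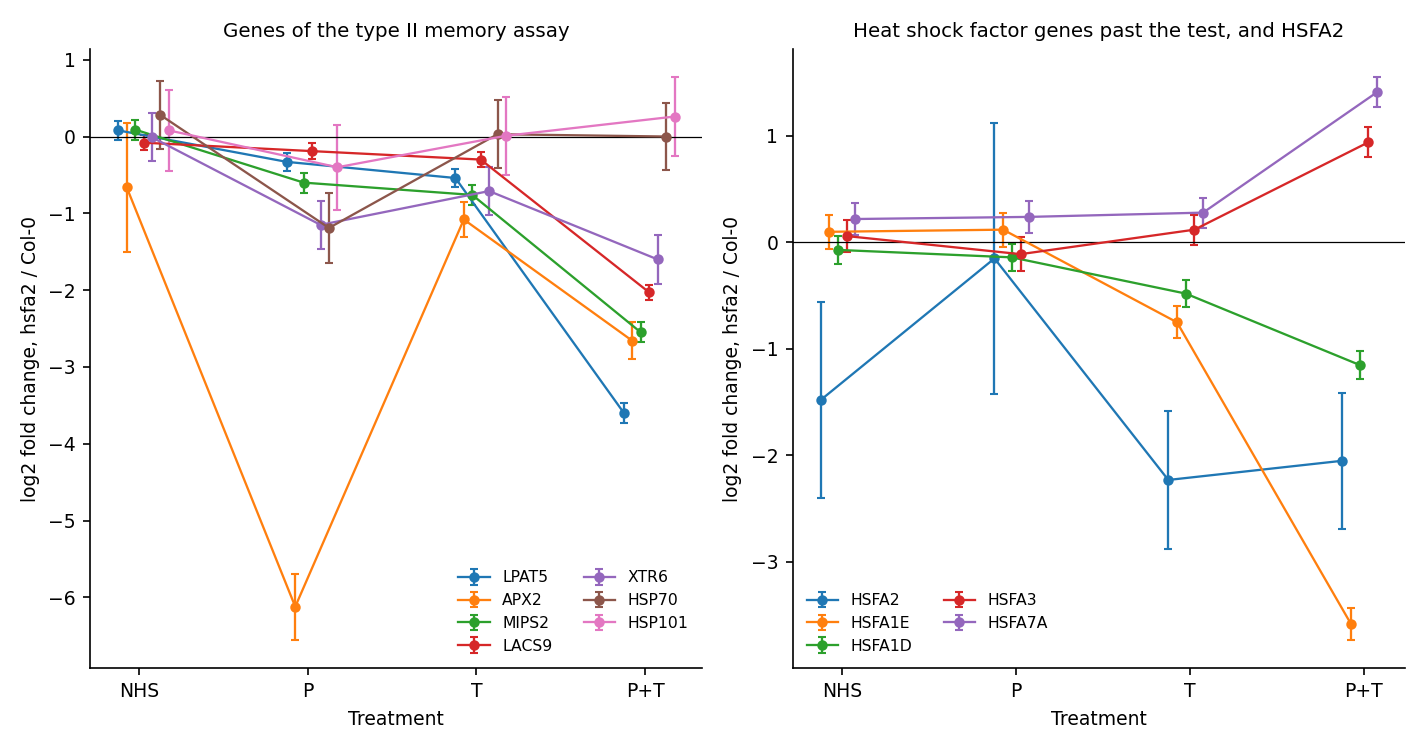
The difference between *hsfa2* and Col-0 by treatment. Points are log2FC of *hsfa2* relative to Col-0 and bars are standard errors from the fit, for the 7 genes of the memory assay (left) and for *HSFA2* and the heat shock factor genes past the test at P + T (right). *LPAT5*, *LACS9* and *HSFA1E* lie near 0 at NHS and P and fall furthest at P + T, *APX2* is lowest at P with −6.12, and *HSFA7A* and *HSFA3* depart upwards at P + T.

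A second list held 8 genes known as HSFA2 targets, *APX2* among them. They were listed for this known link to HSFA2, so their counts, at P above all, are not independent evidence. At P + T, 2 of the 8 were lower by the adjusted p and none was higher, and the median log2FC was −0.713, whereas at P 6 of the 8 were lower, against 0.273% of all genes lower at P, and the median was −2.38. *GOLS1*, which encodes galactinol synthase, had 4918, 3994 and 4568 CPM in *hsfa2*, against 8073, 6812 and 7481 CPM in Col-0 (log2FC −0.73 ± 0.21 (SE), adjusted p = 0.0338). The groups did not overlap, but the call was lost without any 1 of 5 libraries, Col-0 replicate 2 being the exception (adjusted p up to 0.138). *HSP21*, which encodes a small heat shock protein of plastids, had 977, 889 and 988 CPM in *hsfa2*, against 1787, 1862 and 1978 CPM in Col-0. Its groups did not overlap either, but the fit over 12 groups did not call it (log2FC −0.97 ± 0.43 (SE), adjusted p = 0.205). *AT1G52560*, an HSP20-like gene, was similar (−0.93 ± 0.37 (SE), adjusted p = 0.141). In the fit of the 6 P + T libraries alone 5 of the 8 were lower, *HSP21* (−0.99, adjusted p = 0.0008) and *AT1G52560* (−0.95, adjusted p = 0.000774) among them, and in the fit over T and P + T 6 were lower.

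*HSP18.2* and *HSA32* passed the test of the 12-group fit at P but not at P + T. *HSP18.2* had 3841 to 4626 CPM in *hsfa2* and 5384 to 6305 CPM in Col-0 at P + T (log2FC −0.44, adjusted p = 0.6), without overlap. The fit over T and P + T called it lower (−0.45, adjusted p = 0.0403). At P it had 7.80 to 9.27 CPM in *hsfa2* and 61.2 to 76.8 CPM in Col-0 (log2FC −2.98, adjusted p = 0.000141). *HSA32*, required for long-lasting acquired thermotolerance, had 300 to 317 CPM in *hsfa2* and 260 to 293 CPM in Col-0 at P + T, and 2.82 to 3.75 CPM in *hsfa2* and 8.88 to 10.5 CPM in Col-0 at P (log2FC −1.63, adjusted p = 2.82e-05). The difference at P + T minus that at P was 2.54 for *HSP18.2* (adjusted p = 0.00798) and 1.77 for *HSA32* (adjusted p = 8.64e-05).

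Small heat shock proteins bind unfolding proteins and hold them for refolding. Of 19 tested genes, 1 was lower in *hsfa2* at P + T (5.26%, against 4.22% of all genes) and none was higher. The median log2FC of 0.019 was close to the median of all genes. Standard errors of the 12-group fit were wide for some members, such as 0.68 for *HSP17.6A-CII* and 0.64 for *AT1G53540*. A missing call in this fit therefore does not show that a gene was unchanged. The lower gene, *AT5G47600*, averaged under 1 CPM, with 0.332, 0.136 and 0.407 CPM in *hsfa2*, against 0.587, 0.889 and 0.734 CPM in Col-0 (log2FC −1.32, adjusted p = 0.0391). It was not called without any 1 of 4 libraries, *hsfa2* replicates 1 and 2 and Col-0 replicates 2 and 3 (adjusted p up to 0.213). At P the median of the same 19 genes was −1.73 and 6 were lower. For 6 members the difference at P + T minus that at P was above 0 and passed the test. The fit over T and P + T called 4 members lower at P + T, and that of the 6 P + T libraries called 3.

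Heat shock factor genes moved in both directions. Of 19 tested, 2 were lower (10.5%) and 2 were higher (10.5%) by the adjusted p, against 4.22% and 2.3% of all genes. The 19 include the disrupted gene *HSFA2*, which missed the threshold in this fit. With the replicate number as a block 4 were lower, *HSFA2* among them, and 2 higher. *HSFA1D*, another HSFA1 gene, had 21.3, 19.6 and 20.5 CPM in *hsfa2*, against 47.7, 40.2 and 48.6 CPM in Col-0 (log2FC −1.15 ± 0.13 (SE), adjusted p = 6.53e-08). The other HSFA1 genes, *HSFA1A* (0.16) and *HSFA1B* (0.06), did not pass the test. *HSFA7A* had 924, 875 and 889 CPM in *hsfa2*, against 371, 337 and 312 CPM in Col-0 (log2FC 1.41 ± 0.14 (SE), adjusted p = 9.48e-09). *HSFA3*, which acts downstream of the drought and heat regulator DREB2A, had 98.7, 85.0 and 98.7 CPM in *hsfa2*, against 54.7, 46.4 and 47.2 CPM in Col-0 (log2FC 0.94 ± 0.14 (SE), adjusted p = 2.36e-05). For both genes every mutant library was above every Col-0 library. *DREB2A* had 540, 550 and 580 CPM in *hsfa2*, against 382, 368 and 386 CPM in Col-0 (log2FC 0.56, adjusted p = 0.0422), and this call was lost without any 1 of the 6 libraries (adjusted p up to 0.137).

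The difference of *HSFA1E* at P + T minus that at T was −2.83 (adjusted p = 1.7e-10). The same contrast was 1.13 for *HSFA7A* (adjusted p = 0.00073) and 0.82 for *HSFA3* (adjusted p = 0.031). At T, *HSFA1E* had 5.39 to 5.60 CPM in *hsfa2* and 7.42 to 10.6 CPM in Col-0 (log2FC −0.75, adjusted p = 0.0265). *HSFA7A* had 1484 to 1616 CPM in *hsfa2* and 1147 to 1351 CPM in Col-0 at T (log2FC 0.28, adjusted p = 0.825).

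HSP70 proteins fold client proteins in an ATP-driven cycle, in the cytosol, the endoplasmic reticulum, plastids and mitochondria. Of 17 tested genes, 5 were lower (29.4%, against 4.22% of all genes) and 2 were higher (11.8%, against 2.3%) by the adjusted p, and with a log2FC beyond 1 as well 2 were lower and 0 higher. The family median was 0.256, with 10 genes above 0 and 7 below. The replicate block gave 5 lower and 5 higher, and DESeq2 5 lower and 4 higher. *AT1G11660*, annotated as an HSP70 family protein, had 218, 184 and 192 CPM in *hsfa2*, against 574, 485 and 501 CPM in Col-0 (log2FC −1.39 ± 0.10 (SE), adjusted p = 1.74e-11). *AT4G16660*, with the same annotation, had 189, 159 and 169 CPM in *hsfa2*, against 525, 405 and 418 CPM in Col-0 (log2FC −1.37 ± 0.11 (SE), adjusted p = 5.36e-11). The plastid gene *CPHSC70-1* had 1001, 852 and 998 CPM in *hsfa2*, against 1769, 1656 and 1753 CPM in Col-0 (log2FC −0.86, adjusted p = 9.82e-08). These 3 genes were without overlap, and for each the difference was larger at P + T than at T (interaction −1.02, −0.97 and −0.71).

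Other members of the family changed less. *BIP1* of the endoplasmic reticulum (log2FC −0.68, adjusted p = 2.38e-05) and *MTHSC70-1* of mitochondria (−0.29, adjusted p = 0.0456) were lower, and the cytosolic *HSC70-1* (0.46, adjusted p = 0.036) and *Hsp70-2* (0.71, adjusted p = 0.00177) were higher. Other members of the same compartments did not go lower with them. *MTHSC70-2* of mitochondria (0.40, adjusted p = 0.0856), the plastid gene *CPHSC70-2* (0.37, adjusted p = 0.166) and *BIP2* (−0.04, adjusted p = 0.905) did not pass the test. *BIP1*, *BIP2*, *MTHSC70-1*, *MTHSC70-2*, *CPHSC70-2* and *HSC70-1* were named after their values were seen. The call of *MTHSC70-1* was lost without *hsfa2* replicate 1 or 2 or Col-0 replicate 1 or 3 (adjusted p up to 0.233), and that of *HSC70-1* without *hsfa2* replicate 1 or 3 or Col-0 replicate 1 or 2 (up to 0.199). *BIP1* and *BIP2*, and *HSC70-1* and *Hsp70-2*, are close paralogs whose reads may be split unevenly, so that these values are uncertain.

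HSP90 proteins mature signalling proteins and restrain heat shock factors in unstressed cells. Of 7 tested genes, 2 were higher (28.6%, against 2.3% of all genes) and none was lower, with a median log2FC of 0.384, and 4 were higher with the replicate block. *HSP90.3* had 2374, 2174 and 2551 CPM in *hsfa2*, against 1158, 1083 and 1128 CPM in Col-0 (log2FC 1.08 ± 0.13 (SE), adjusted p = 5.49e-07). *HSP90.6* of mitochondria had 544, 367 and 491 CPM in *hsfa2*, against 278, 193 and 220 CPM in Col-0 (log2FC 1.03 ± 0.15 (SE), adjusted p = 2.11e-05). Neither gene showed overlap, and the difference at P + T exceeded that at T for both (0.89, adjusted p = 0.0063, and 0.87, adjusted p = 0.034). *HSP90.3* is nearly identical to *HSP90.2* and *HSP90.4*, so the share of reads given to each is uncertain. *HSP90.2* (0.38, adjusted p = 0.0551) and *HSP90.4* (0.47, adjusted p = 0.0752) had values in the same direction and passed the test with the replicate number as a block (adjusted p = 0.0306 and 0.00369).

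**Figure D4:**
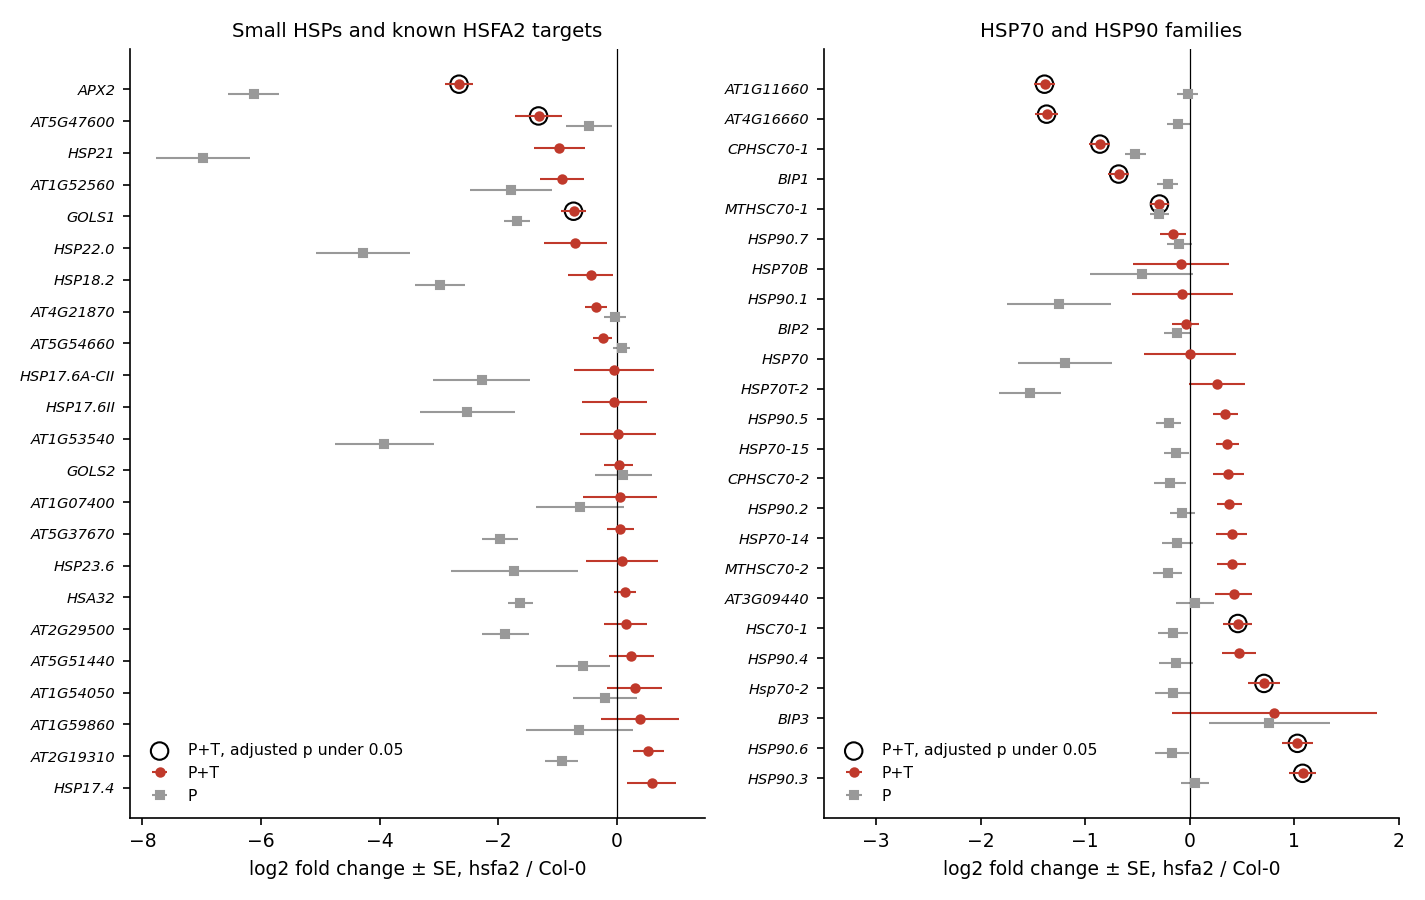
Chaperone genes and known HSFA2 targets at P + T (red circles) and at P (grey squares). Points are log2FC of *hsfa2* relative to Col-0 with standard errors from the fit, rings mark an adjusted p under 0.05 at P + T, and no P value is drawn where neither genotype had more than 3 reads. Most small heat shock proteins sit near 0 at P + T and well below 0 at P (medians 0.019 and −1.73), and *HSP90.3* and *HSP90.6* lie to the right at P + T.

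Co-chaperones direct HSP70 and HSP90 to their clients. Of 16 tested, 3 were higher (18.8%, against 2.3% of all genes) and 1 was lower (6.25%, against 4.22%). Without any 1 library 1 to 4 were higher and 0 lower, 1 being the number without *hsfa2* replicate 1 or 3 or Col-0 replicate 1. *AT3G12050*, annotated as an Aha1 domain protein, a type of HSP90 activator known from yeast, had 924, 882 and 1044 CPM in *hsfa2*, against 583, 549 and 628 CPM in Col-0 (log2FC 0.70, adjusted p = 0.000822). *SGT1A* had a log2FC of 0.61 (adjusted p = 0.018), lost without *hsfa2* replicate 1 or 3 or Col-0 replicate 1 (adjusted p up to 0.0789). *J2* (0.29, adjusted p = 0.0413) and the ubiquitin ligase gene *CHIP* (−0.33, adjusted p = 0.0492) were past the test only narrowly, and both calls were lost without any 1 of at least 5 libraries (adjusted p up to 0.183 and 0.146). None of the 4 genes for disaggregases and HSA32, and none of 10 chaperonin genes, passed the test. Among 115 tested genes annotated as DnaJ proteins, 3 were lower (2.61%) and 5 were higher (4.35%). *AT2G22360* was the lowest of these past the test (log2FC −1.18, adjusted p = 3.28e-10), with 34.3, 29.9 and 33.7 CPM in *hsfa2*, against 81.6, 70.8 and 71.0 CPM in Col-0. *AT3G14200* was among the higher ones (0.84, adjusted p = 0.000248).

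Genes for inositol, galactinol and raffinose synthesis were represented by 11 genes, of which 3 were lower (*STS*, *MIPS2* and *GOLS1*, 27.3%, against 4.22% of all genes) and none was higher. Inositol and galactinol are the precursors of raffinose-type sugars, which protect cells against desiccation and oxidation. The median of the list was −0.280. Of 18 tested genes for acyltransferases and acyl-CoA synthetases, 2 were lower (11.1%), *LPAT5* and *LACS9*, and the median was −0.056. Both genes, like *MIPS2* above and *APX2* below, were picked by the study for type II memory. The shares of these lists are thus not independent evidence. Of 18 genes for ascorbate peroxidases, catalases and superoxide dismutases, 2 were lower (11.1%). These were *APX2* and the plastid superoxide dismutase gene *FSD1*, which had 1218, 1108 and 1044 CPM in *hsfa2*, against 1717, 1493 and 1559 CPM in Col-0 (log2FC −0.50, adjusted p = 0.0488). The *FSD1* call was lost without any 1 of 5 libraries, all but Col-0 replicate 2 (adjusted p up to 0.155).

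*FTSH6* was 1 of 5 plastid FtsH protease genes and the 1 that passed the test. It encodes a protease known to degrade HSP21 in *Arabidopsis*. It had 32.1, 27.5 and 30.0 CPM in *hsfa2*, against 76.5, 67.6 and 66.3 CPM in Col-0 (log2FC −1.22 ± 0.18 (SE), adjusted p = 2.09e-05). At P it was at 0 to 0.067 CPM in *hsfa2* and 0.128 to 0.559 CPM in Col-0. Every Col-0 library was above every *hsfa2* library at both treatments, and the gene overlaps another annotated gene.

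Xyloglucan endotransglucosylase/hydrolases cut and rejoin xyloglucan in the cell wall. Of 28 tested, 3 were lower (10.7%, against 4.22% of all genes) and none was higher. *XTR6*, among these, was picked by the study for type II memory, so this share is not independent evidence. *XTR6* was followed by *XTH18* (log2FC −1.24, adjusted p = 0.00636, 0.0582 without *hsfa2* replicate 3) and *XTH8* (−0.55, adjusted p = 0.015, up to 0.0969 without *hsfa2* replicate 1 or Col-0 replicate 3). Of 12 tested suberin genes, 1 was lower, the transporter gene *ABCG6* (−0.94, adjusted p = 0.00831, up to 0.0573 without *hsfa2* replicate 1 or 3). Of 14 genes of phenylpropanoid and lignin synthesis 1 was lower, *COMT1* (−0.32, adjusted p = 0.0396), a call lost without any 1 of 5 libraries, all but *hsfa2* replicate 2 (adjusted p up to 0.191). Of 11 tested flavonoid genes none passed.

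Among 18 circadian clock genes, 1 was lower and 1 was higher (5.56% each, against 4.22% and 2.3% of all genes). *ZTL*, which encodes a blue-light receptor that targets clock proteins for degradation, had 40.7, 32.9 and 31.9 CPM in *hsfa2*, against 68.4, 66.7 and 58.9 CPM in Col-0 (log2FC −0.87, adjusted p = 3.61e-06). *PRR9*, a morning clock gene, had 24.7, 18.9 and 17.3 CPM in *hsfa2*, against 14.7, 12.5 and 10.9 CPM in Col-0 (log2FC 0.68, adjusted p = 0.00475, 0.0561 without *hsfa2* replicate 1). Neither showed overlap. None of 11 phytochrome and PIF genes, 12 chromatin regulators of heat memory, 5 genes of the Mediator kinase module, 13 autophagy genes, 13 cell cycle genes and 13 tested auxin response genes passed the test in either direction.

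Several lists of stress and RNA-processing genes had 1 or 2 higher members, where 2.3% of all genes were higher. Of 20 cold and abscisic acid response genes 1 was higher (5.0%), *NCED3*, whose product makes the precursor of abscisic acid. It had 42.7, 38.7 and 34.3 CPM in *hsfa2*, against 25.0, 26.3 and 22.3 CPM in Col-0 (log2FC 0.66, adjusted p = 0.00636). Of 14 stress WRKY and ZAT factors 1 was higher (7.14%), *ZAT6* (0.91, adjusted p = 0.00308), with 222, 202 and 197 CPM in *hsfa2*, against 116, 111 and 104 CPM in Col-0. Of 17 tested defence genes 2 were higher (11.8%), *NPR1* (0.39, adjusted p = 0.0358) and *JAR1* (0.28, adjusted p = 0.0455), which act in salicylate and jasmonate signalling. Both calls were lost without *hsfa2* replicate 1 or 2 or Col-0 replicate 3, that of *NPR1* also without Col-0 replicate 1 and that of *JAR1* without Col-0 replicate 2 (adjusted p up to 0.173 and 0.209). Of 17 genes of the endoplasmic reticulum stress response 1 was lower, *BIP1*. Of 17 splicing factor genes of the SR family 2 were higher (11.8%), *SR34B* (0.84, adjusted p = 0.00011) and *SCL33* (0.37, adjusted p = 0.0286). The *SCL33* call was lost without *hsfa2* replicate 1 or 3 or Col-0 replicate 2 (adjusted p up to 0.174).

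Across 22 families defined by annotation terms, 0 to 10.7% of the tested members were lower and 0 to 5.48% were higher by the adjusted p, and family medians ranged from −0.262 to 0.183. The largest, ribosomal proteins, had 14 of 309 members lower (4.53%, against 4.22% of all genes) and none higher. Of these 309 genes, 252 had a log2FC below 0 at P + T, but the family medians were −0.159 at P + T, −0.183 at T and −0.129 at NHS. MYB factors had 6 of 115 lower (5.22%) and 5 higher (4.35%). *MYB86* had 1.50, 1.67 and 1.25 CPM in *hsfa2*, against 13.5, 13.0 and 10.1 CPM in Col-0 (log2FC −3.03, adjusted p = 1.53e-14), and *MYB1* had 7.44, 7.51 and 8.85 CPM in *hsfa2*, against 44.9, 41.8 and 44.7 CPM in Col-0 (log2FC −2.46, adjusted p = 7.58e-15). Both stood apart without overlap. NAC factors had 4 of 73 higher (5.48%) and none lower, with log2FC from 0.52 for *NAC2* (adjusted p = 2.04e-05) to 1.19 for *NTM1* (adjusted p = 0.000384).

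Cytochrome P450 and UDP-glycosyltransferase genes, which modify secondary metabolites and hormones, had members in both directions. Of 182 tested P450 genes 12 were lower (6.59%, against 4.22% of all genes) and 4 were higher (2.20%, against 2.3%). Of 104 tested glycosyltransferase genes 4 were lower (3.85%) and 5 were higher (4.81%). The share of higher P450 genes and that of lower glycosyltransferase genes were thus near those of all genes. The other shares were above those of all genes. *CYP89A5* had 73.3, 94.3 and 71.8 CPM in *hsfa2*, against 177, 160 and 266 CPM in Col-0 (log2FC −1.34, adjusted p = 9.23e-05). *CYP71B13* had 17.0, 14.4 and 13.0 CPM in *hsfa2*, against 5.74, 5.80 and 3.94 CPM in Col-0 (log2FC 1.53, adjusted p = 7.7e-06). These genes differed in opposite directions, each without overlap between genotypes. *UGT71C2* had 11.46, 17.92 and 10.04 CPM in *hsfa2*, against 58.2, 58.9 and 58.1 CPM in Col-0 (log2FC −2.14, adjusted p = 9.81e-11). Photosynthesis complexes had 2 of 67 lower (2.99%) and 1 higher (1.49%), both under the shares of all genes, with a median of 0.105. The lower genes were *ELIP2* (−1.19, adjusted p = 0.00716, 0.0614 without *hsfa2* replicate 1) and *PSBP-2* (−0.86, adjusted p = 0.00442, 0.0681 without Col-0 replicate 1). The higher one was *AT5G28450* (0.81, adjusted p = 0.039), a call lost without any 1 of 5 libraries, all but Col-0 replicate 3 (adjusted p up to 0.168).

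The 12 highest genes, selected at a mean of at least 1 CPM and without overlap between genotypes, had smaller differences than the lowest. *RAS1*, a gene of responses to abscisic acid and salt, had 19.9, 13.7 and 18.6 CPM in *hsfa2*, against 3.98, 4.81 and 3.34 CPM in Col-0 (log2FC 2.12 ± 0.29 (SE), adjusted p = 3.56e-06). *AT1G51090*, annotated as a heavy metal transport and detoxification protein, had 15.8, 10.7 and 12.9 CPM in *hsfa2*, against 3.32, 3.89 and 2.77 CPM in Col-0 (log2FC 1.99 ± 0.29 (SE), adjusted p = 1.55e-05). Both genes were 3.96-fold to 4.33-fold higher without overlap. The noncoding RNA gene *AT1G09287* had 2.66, 1.63 and 2.75 CPM in *hsfa2*, against 0.391, 0.692 and 0.401 CPM in Col-0 (log2FC 2.25 ± 0.38 (SE), adjusted p = 0.00014), and it overlaps another gene.

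Transcription factor genes and a carotenoid enzyme gene were also among the highest. *AT4G18450*, annotated as an integrase-type DNA-binding protein, had 10.8, 11.1 and 11.6 CPM in *hsfa2*, against 4.73, 3.82 and 3.74 CPM in Col-0 (log2FC 1.46, adjusted p = 9.39e-06). *RAP2.9* had 10.4, 11.8 and 10.4 CPM in *hsfa2*, against 4.43, 4.45 and 3.71 CPM in Col-0 (log2FC 1.39, adjusted p = 0.00316). *AT4G28140*, with the annotation of *AT4G18450*, had a log2FC of 1.52 (adjusted p = 0.0066, 0.0556 without *hsfa2* replicate 1). *NCED4*, annotated as a carotenoid dioxygenase, had 106, 182 and 107 CPM in *hsfa2*, against 41.5, 62.2 and 45.6 CPM in Col-0. Its log2FC of 1.42 (adjusted p = 0.0127) lost its call without *hsfa2* replicate 2 or Col-0 replicate 1 or 3 (adjusted p up to 0.113). The groups did not overlap in any of these genes, which was a condition of their selection.

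The genes called at P + T were next followed at the treatments that share no library with it. Of the 296 genes lower at P + T, 243 had a log2FC below 0 at T (82.1%, against 47.7% of all genes tested), with a median of −0.354. By the adjusted p, 24 of them were lower at T, where 0.139% of all genes were. At P, 223 were below 0 (75.3%, against 53.5% of all genes), and 16 were lower by the adjusted p, *APX2*, *MIPS2* and *FTSH6* among them. At NHS, 165 were below 0 (55.7%, against 51.3%), and 2 were lower by the adjusted p. Of the 61 genes higher at P + T, 46 were above 0 at T (75.4%, against 52.2% of all genes), and 46 also at NHS (75.4%, against 48.5%).

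Most of these differences thus passed the test at P + T alone. Of the 357 called genes, 318 did not pass in the same direction at T, P or NHS, 32 passed at 1 of these treatments, 5 at 2 and 2 at all of them. The 2 genes were named for this pattern after their values were seen. *AT1G67105*, the noncoding RNA gene, had log2FC of −3.63, −3.57, −3.36 and −3.26 at NHS, P, T and P + T. Its levels at P + T were 1.23, 1.09 and 0.983 CPM in *hsfa2*, against 9.75, 17.8 and 4.77 CPM in Col-0. *AT4G15750* had log2FC of 4.60, 2.84, 3.17 and 3.83 in the same order of treatments. It was left out of the 12 highest genes, so it averaged under 1 CPM at P + T or its genotypes overlapped there. Its levels are not given here, and its values are less certain. These 2 genes differed between the genotypes also without heat, and whether the mutant line differs from Col-0 at these loci was not tested.

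A test of the interaction asked whether the difference at P + T exceeded that at T. At an adjusted p under 0.05 and a log2 difference beyond 1 in either direction, 122 genes had a lower difference at P + T than at T (0.585%) and 11 had a higher one (0.0528%). Of the 296 genes lower at P + T, 115 were among the 122, and of the 61 genes higher at P + T, 9 were among the 11, the interaction being computed in part from the same libraries. Without Col-0 replicate 1 at P + T the 11 became 6. Among the named genes, *AT4G18840* had an interaction of −3.38 and *CLE43* one of −3.23. *CLE43* had 1.54 to 1.62 CPM in *hsfa2* and 1.14 to 1.82 CPM in Col-0 at T, where the groups overlapped.

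The heat response of the Col-0 seedlings after a single HS, measured as T relative to NHS, gave a further view of the called genes. Of the 296 genes lower at P + T, 108 (36.5%) were induced in Col-0 at T, against 8.68% of all genes tested. Another 43 (14.5%) were repressed at T, against 17.1% of all genes, and 145 met neither criterion. Of the 61 genes higher at P + T, 28 (45.9%) were induced and 13 (21.3%) repressed at T. Both directions thus held a larger share of heat-induced genes than all genes did.

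Heat shock element motifs were counted in the 300 bases from 250 before to 50 after the start of each gene, on both strands, in the dimer forms GAANNTTC and TTCNNGAA, which may overlap each other. At least 1 dimer was present in 84 of 296 promoters of lower genes (28.4%), in 10 of 61 promoters of higher genes (16.4%) and in 3911 of 20847 promoters of all genes tested (18.8%). Among genes induced in Col-0 at T, 475 of 1809 promoters held a dimer (26.3%). Of the lower genes, those that were also induced at T held a dimer in 38 of 108 promoters (35.2%) and the others in 46 of 188 (24.5%). Trimers, in which both dimer forms overlap so that 3 units of GAA and TTC alternate at the same spacing, were present in 4 promoters of lower genes (1.35%), 2 of higher genes (3.28%) and 0.547% of all promoters. They were also present in 2.76% of the promoters of genes induced in Col-0 at T, and in 1 of the 108 lower genes that were induced (0.926%). Of the 12 lowest genes 3 held a dimer, *HSFA1E*, *AT4G14170* and *AT4G31615*, and of the 12 highest 2 did. These shares describe letters in a window and say nothing of the binding of HSFA2 or any other factor.

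**Figure D5:**
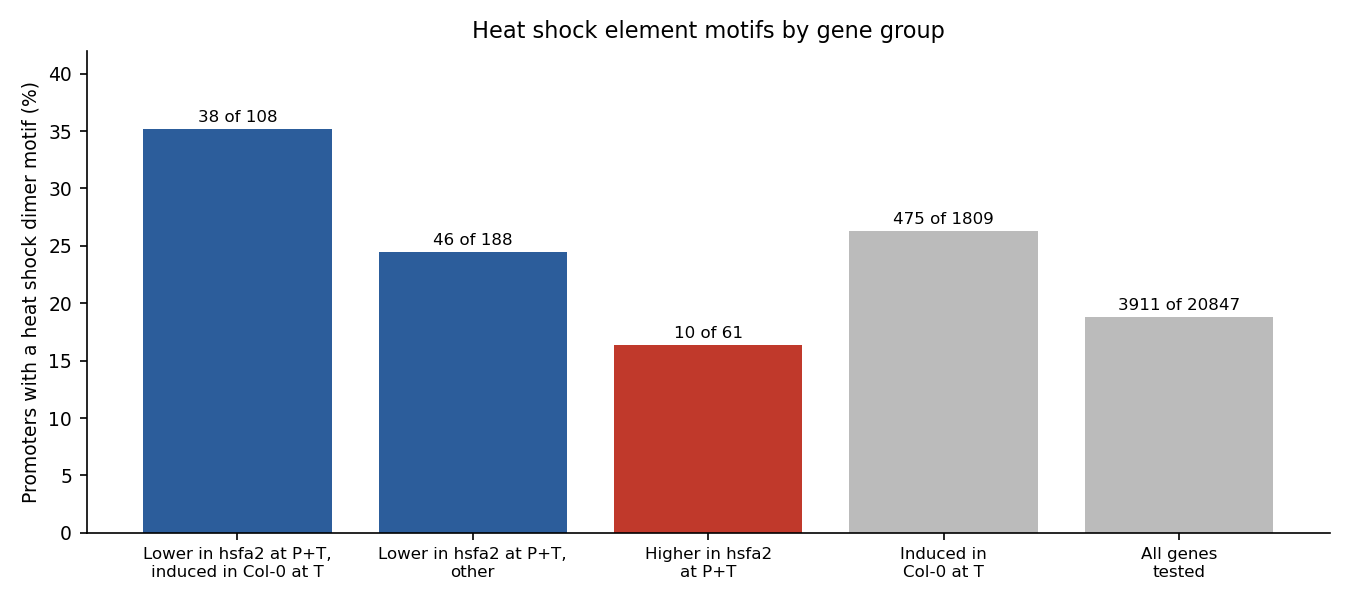
Share of promoters with at least 1 heat shock element dimer by gene group. Bars are percentages of the promoters in each group, with the counts above them, and all promoters have 300 bases. The share is highest in genes lower in *hsfa2* at P + T that were induced in Col-0 at T (35.2%), and 18.8% over all genes tested.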

How the data were processed

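RNA was extracted from whole seedlings, and the polyadenylated fraction was sequenced as read pairs. Per the labels and the study's methods, the authors aligned the reads with STAR 2.7.10a to TAIR10 and deposited raw counts per gene, 1 table per library. All 36 libraries held 29409330 to 31224343 counted pairs. Unassigned pairs, 5.93% to 7.10% ambiguous ones at P + T among them, stayed out of library sizes. All 36632 gene identifiers matched the RefSeq annotation (TAIR10.1), from which names, overlaps and promoters were taken.

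Counts were fitted with edgeR 4.0.16 (R 4.3.3, quasi-likelihood F-test, two-sided) over all 12 groups (*hsfa2*, *cdk8* and Col-0 at 4 treatments) after filterByExpr (minimum count 10, minimum total 15) and TMM scaling, with Benjamini-Hochberg adjustment over 20847 genes. TMM factors at P + T were 0.713 to 0.784 in *hsfa2* and 0.694 to 0.777 in Col-0. All adjusted p-values in the text come from this fit unless another is named. Standard errors were derived from it, as the absolute log2FC divided by the square root of the F statistic. They are unstable for genes with almost no reads. The script was tested on simulated counts. Alternatives were DESeq2 1.42.0 (with its size factors also used in edgeR), library size alone, other filters, fewer groups, a replicate block, glmTreat, leaving out overlapping genes and leaving out each P + T library. Where an arm was left with 2 libraries, the spread was shared over groups. P-values of the main fit rest on the spread between biological replicates, 3 per group, estimated over all 12 groups with information shared across genes. The main fit ignored the replicate numbers, which only the replicate block used.

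*HSFA2* was named first, then the 12 lowest and 12 highest called genes averaging at least 1 CPM without overlap between genotypes, up to 4 members of each list past an adjusted p of 0.05, and the genes of the memory assay. Chaperones, heat shock factors and HSFA2 targets named beside these were selected after their values were seen. The annotation families of 3 terms (proteasome subunits, ERF factors, aquaporins) were left out because their name patterns took unrelated genes. Members and lists were chosen with earlier results of these data known. Of 405 list entries 373 matched the annotation by name, and the rest by identifier alone.

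Replicate numbers paired the P + T libraries. Over 11750 genes averaging at least 5 CPM, deviations from the group means correlated at 0.499, 0.288 and 0.627 between *hsfa2* and Col-0 libraries of the same number and at −0.504 to 0.079 between the others. Which strand setting produced the deposited counts is not given in the sources used here, so reads of antisense pairs may not be separable.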

Additional observations from a re-analysis of the deposited data

Results flagged for a closer look

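For 33 of the named genes the difference between *hsfa2* and Col-0 at P + T differed from that at T by the interaction test of the edgeR fit (adjusted p under 0.05). All interactions below are log2 differences, P + T minus T, and 24 of the 33 were below 0. The PPR genes had −3.38 (*AT4G18840*), −2.62 (*AT4G14170*) and −1.67 (*AT1G33350*). Lipid and inositol genes had −3.06 (*LPAT5*), −1.79 (*MIPS2*) and −1.72 (*LACS9*), and the peroxidase gene *APX2* had −1.58. Among regulators, *CLE43* had −3.23, *MYB86* −2.90, *HSFA1E* −2.83, *ZF3* −2.25, *MYB1* −1.82 and *ZTL* −0.73.

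Among enzymes, *UGT71C2* had an interaction of −1.74, *AT1G73340* of −1.42, *CYP89A5* of −1.37 and *AT1G73740* of −1.18, and the phospholipase-like gene *AT5G11140* of −1.82. Among chaperones, *AT1G11660* had −1.02, *AT4G16660* −0.97, *AT2G22360* −0.85, *AT5G37380* −0.75, *CPHSC70-1* −0.71 and *AT5G01390* −0.59. Above 0 were *AT1G09287* with 2.24, *AT1G51090* with 2.10, *RAS1* with 1.89, *CYP71B13* with 1.41, *NTM1* with 1.24, *HSFA7A* with 1.13, *HSP90.3* with 0.89, *HSP90.6* with 0.87 and *HSFA3* with 0.82. Many of these genes were named because of their difference at P + T, so a difference from T is in part a result of that choice.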

How the results depend on the processing

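The counts of 296 lower and 61 higher genes became 311 and 55 with DESeq2, and 326 and 68 with the replicate block. They were 284 and 49 with the T and P + T groups alone, and 308 and 42 with the 6 P + T libraries alone. A mean of at least 1 CPM left 40 higher genes. Tested against a log2FC of 1 (glmTreat), 85 genes were lower and 4 higher, and 17 and 0 had a lower or higher difference at P + T than at T. Leaving out 1 library gave 265 to 303 lower genes (248 to 263 of them among the 296), 47 to 73 higher genes (37 to 47 shared), 105 to 125 lower interactions and 6 to 12 higher ones. *HSFA2* had log2FC of −2.06 with library size alone (adjusted p = 0.0481), −2.05 without the filter (0.0339), −2.06 with 4 groups (4.34e-07), −2.06 with 6 libraries (7.99e-06) and −2.04 with the replicate block (0.0266). Its range without 1 library was −2.13 to −1.96 (0.0848 to 0.174), and the cause was not tested. *HSP70*, at 0.00, turned to −0.02 (DESeq2, its size factors and 6 libraries), −0.01 (library size and 4 groups), −0.00 (no filter and the replicate block) and −0.08 to 0.06 without 1 library, and *GOLS2*, at 0.03, to −0.01 to 0.07 without 1 library. Of 85 named genes past the test, 56 kept their call without any 1 library and 29 lost it without at least 1. Apart from *HSFA2*, *HSP90.2* and *HSP90.4*, the replicate block changed no call of the named genes compared between fits. *MTHSC70-2*, *CPHSC70-2* and *BIP2* were not among those compared. The replicate block also moved the counts of heat shock factors, HSP70 and HSP90 genes given above. At these depths, small changes of genes under 1 CPM were not detectable.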
